A study of Mus musculus with 15 samples.

Results

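The genes described here were at most weakly detected when the lens first formed and were well expressed in the late embryonic lens. They were selected on 3 measured values in FPKM, a level scaled to transcript length and library size: a mean below 1 in the E10.5 lens, below 1 in whole embryos, and 20 or more in the E16.5 lens. Genes whose names start with Cry were to be left out, and 0 of the 23 such genes met the thresholds. The thresholds chose 58 of 14615 gene symbols, so the levels at E10.5, at E16.5 and in whole embryos are given as a description, with no test. The thresholds do not use the E12.5 and E14.5 lens libraries, and the comparison between these stages was tested, although the thresholds were set with earlier results of these data known.

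RNA-seq libraries were made from wild-type C57BL/6NTac mouse lenses of E10.5 (E, embryonic day), E12.5, E14.5 or E16.5, and from whole embryos of E10.5 to E12.5, labelled whole body. Each of the 5 groups had 3 libraries, which the labels call biological replicates. The pool behind a lens library held 50 lenses (E10.5), 29 (E12.5), 18 (E14.5) or 17 (E16.5). How embryos of several days went into a whole-body library is not stated. No treatment or mutation was involved, and the number of litters behind a pool is not given.

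The lens grows from a hollow vesicle whose rear cells elongate into primary fibre cells, after which the front epithelium adds secondary fibres around them for life. Fibre cells fill with crystallins, join through connexin channels, and later break down their nuclei and other organelles, which keeps the light path clear. Heat shock factor 4, lens DNase (the product of Dnase2b) and specialised membrane proteins act in this programme, and mutations in several of its genes cause cataract.

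Among the 58 late-on genes, the median of the gene means was 0.187 FPKM at E10.5, 7.01 FPKM at E12.5, 33.8 FPKM at E14.5 and 53.0 FPKM at E16.5, and it was 0.160 FPKM in whole body. Summed over the 58 genes, the level was 17.7 ± 2.50 FPKM at E10.5, 1134 ± 318 FPKM at E12.5, 4598 ± 325 FPKM at E14.5 and 7582 ± 851 FPKM at E16.5, with 14.01 ± 1.51 FPKM in whole body (SD, n = 3 each). That sum was 0.497% ± 0.0694 of all FPKM at E16.5. All FPKM here includes Cryaa, listed at 140912 FPKM in E16.5 replicate 3 and at 0 in replicates 1 and 2. At E10.5, 8 of the 58 genes were listed at 0 in all 3 libraries, in whole body 11 were, and 4 were listed at 0 in both. The depth of the libraries is not known, so a value of 0 is only a listing.

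**Figure D1:**
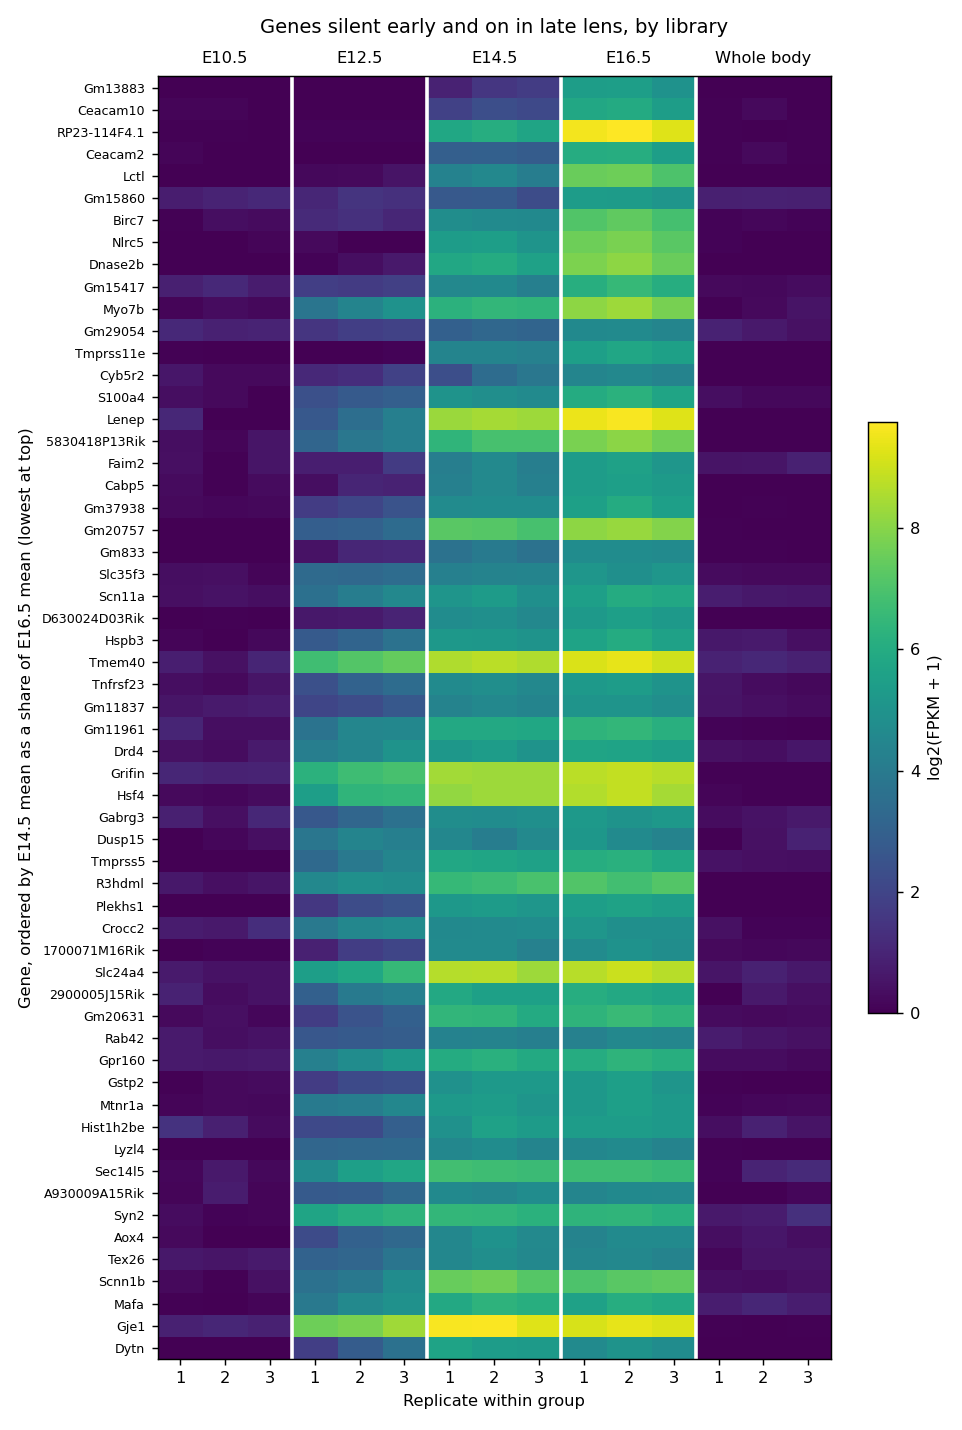
Level of each of the 58 genes (rows) in each of the 15 libraries (columns, 3 per group), as log2(FPKM + 1). Rows run from the gene with the lowest to the gene with the highest E14.5 mean relative to its E16.5 mean, and the E10.5 and whole-body columns are dark throughout because the genes were chosen that way.

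The thresholds cut through a continuous range. Just inside the E16.5 threshold were Rab42 (20.5 FPKM), Cyb5r2 (20.8 FPKM) and Tex26 (21.0 FPKM), and just outside were Gm11427 (18.9 FPKM), Pnpla3 (19.1 FPKM) and E330034G19Rik (19.99 FPKM). For E10.5 the means just inside were 0.947 FPKM (Gm15860), 0.967 FPKM (Grifin) and 0.997 FPKM (Gm29054), and those just outside 1.14 FPKM (Dgkg), 1.15 FPKM (Rnaset2b) and 1.28 FPKM (Lingo3). For whole body, Mafa (0.840 FPKM), Syn2 (0.947 FPKM) and Tmem40 (0.967 FPKM) were just inside, and Mypn (1.11 FPKM), Map6d1 (1.20 FPKM) and Lrrtm2 (1.27 FPKM) just outside. E10.5 replicates 1 and 3 also held RNA of genes typical of liver (Alb, Afp, Apoa1, Apoa2 and Ttr, summed to 478 and 865 FPKM, against 12.8 FPKM in replicate 2). Without these 2 libraries 56 of the 58 genes met the thresholds, and Gje1 and Gm15417 did not.

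The tested comparison asked how much of this activation fell between E12.5 and E14.5. At E14.5, 55 of the 58 genes were higher than at E12.5, 0 were lower and 3 (Syn2, Crocc2 and Dusp15) were not called, by limma on log2(FPKM + 1) with Benjamini-Hochberg adjusted p under 0.05. Among all 14532 genes tested, 21.2% were called higher and 22.4% lower. A change of at least 2-fold was called higher for 52 of the 58 genes and for 4.09% of all genes. With the libraries rescaled to equal totals, 54 of the 58 and 5.46% of all genes were called higher. These totals include Cryaa, which was listed at 111417 FPKM in E14.5 replicate 1 and at 0 in replicates 2 and 3. The median log2 fold change was 1.99 over the 58 genes and -0.01 over all genes tested. All 58 passed the filter on low values, as they had to through their E16.5 level. The thresholds required a rise from E10.5 to E16.5, which favours a rise between E12.5 and E14.5 as well. Genes that are high at E16.5 lean the same way at large: of 7199 other tested genes with at least 20 FPKM at E16.5, 34.2% were called higher, with a median log2 fold change of 0.11. In 55 of the 58 genes every E14.5 library was above every E12.5 library, against 23.6% of all genes tested. In whole lenses, a larger share of fibre cells and more RNA of a gene per cell cannot be told apart.

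**Figure D2:**
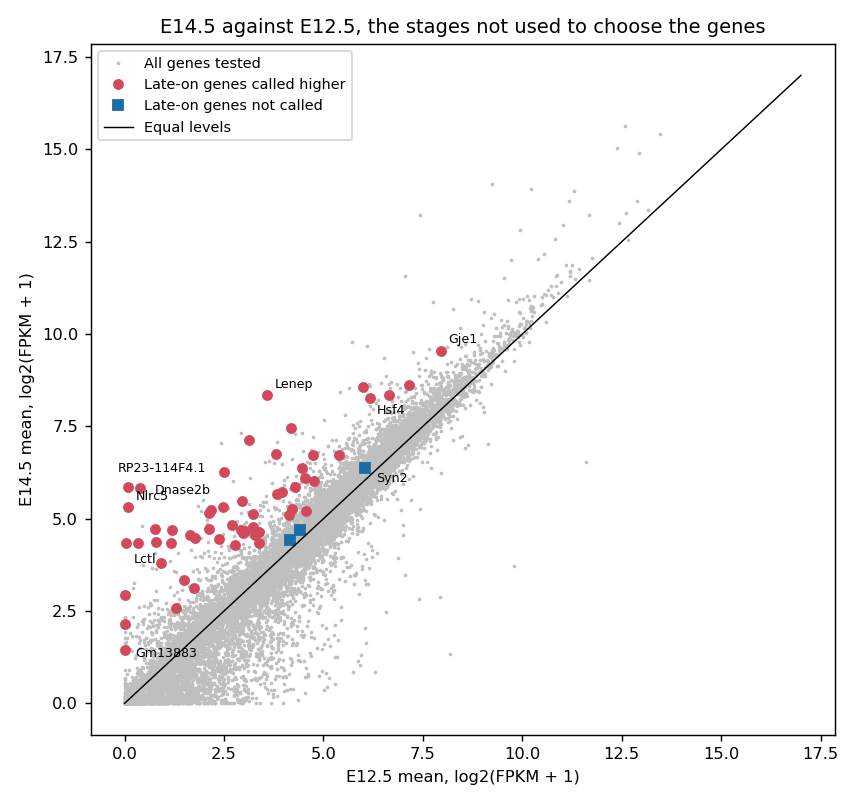
Mean level of each tested gene at E14.5 (vertical axis) against E12.5 (horizontal axis), both as log2(FPKM + 1), with all genes in grey, the 55 late-on genes called higher as red circles and the 3 not called as blue squares. All red circles lie above the line of equal levels, and RP23-114F4.1, Dnase2b and Nlrc5 lie farthest from it among the late-on genes.

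The lens samples also held other cells, and their markers moved between the same stages. At E14.5 relative to E12.5, 11 of 11 macrophage markers fell (summed level 9.74 to 20.2 FPKM across the E14.5 libraries and 100.5 to 197.7 FPKM across the E12.5 libraries). Of 10 endothelial markers 9 fell (83.1 to 158 FPKM at E14.5 and 276 to 526 FPKM at E12.5), and of 9 periocular mesenchyme markers 8 fell and 1 rose (183 to 215 FPKM at E14.5 and 426 to 1197 FPKM at E12.5). Pdgfra rose (log2 fold change 0.58), and the 8 others had log2 fold changes from -2.38 (Twist1) to -4.99 (Col3a1). The mean log2(FPKM + 1) over these 9 mesenchyme markers was 1.79 to 2.51 at E14.5 and 4.70 to 6.29 at E12.5. Of 9 erythroid markers 7 fell (400 to 820 FPKM at E14.5 and 960 to 1852 FPKM at E12.5), and of 7 retinal markers 6 fell (1.39 to 2.64 FPKM at E14.5 and 38.6 to 104.9 FPKM at E12.5). Of the pigment cell markers 3 of 4 fell and 1 rose (20.9 to 29.8 FPKM at E14.5 and 21.8 to 91.0 FPKM at E12.5). Mitf, which rose, averaged 23.2 FPKM at E14.5 and made up most of that sum. Tyr, Dct and Pmel averaged 0.16, 0.29 and 0.95 FPKM at E14.5, against 2.32, 12.6 and 22.7 FPKM at E12.5. Of the surface epithelium markers 4 of 8 fell (1.56 to 3.73 FPKM at E14.5 and 17.2 to 49.6 FPKM at E12.5). Muscle markers (0 of 9 higher, 1 lower) and neuronal markers (2 of 8 higher, 1 lower) mostly missed the threshold. The retinal markers Isl1 and Crx, the muscle markers Myog, Myod1 and Tnnt2, the epithelial marker Krt14 and the neuronal marker Snap25 were listed at 0 in all 3 E14.5 libraries, and no macrophage, endothelial, mesenchyme, erythroid or pigment cell marker was. None of these markers is among the 58 genes, and their part in the result was not tested. Of 9 lens markers tested, 6 rose, 1 (Pax6) fell and 2 (Foxe3 and Pitx3) were not called. Cryaa, which was listed at 0 in some libraries, is not among these 9. Their levels summed to 71074 to 75614 FPKM at E14.5, 12570 to 22328 FPKM at E12.5 and 39.2 to 40.3 FPKM in whole body. They include other crystallins, and Crybb3 alone averaged 43609 FPKM at E14.5 and 11218 FPKM at E12.5.

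Of the regulators of genes and chromatin, all 4 were higher at E14.5 than at E12.5. Hsf4 encodes the heat shock transcription factor that acts in the lens and is mutated in inherited cataract. Hsf4 (chr8:105269801-105275845, plus strand, GRCm38/mm10) had 0.18, 0.12 and 0.22 FPKM at E10.5, 43.3, 83.1 and 86.5 FPKM at E12.5, 287, 316 and 319 FPKM at E14.5 and 397, 462 and 347 FPKM at E16.5. In whole body it had 0.11, 0.04 and 0.04 FPKM. Each stage lay above all libraries of the stage before, and Hsf4 stood at 76.5% of its E16.5 mean by E14.5 and at 17.6% by E12.5. Its log2 fold change of E14.5 against E12.5 was 2.16 ± 0.19 (SE, limma adjusted p = 1.13e-06). The other heat shock factors in the table were present throughout, with means of 52.0 FPKM for Hsf1 and 18.5 FPKM for Hsf2 at E16.5, against 38.0 and 46.5 FPKM in whole body.

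Mafa encodes a transcription factor of the large Maf family, best known from pancreatic beta cells. It had 0.05, 0 and 0.11 FPKM at E10.5, 14.3, 23.3 and 29.6 FPKM at E12.5, 58.0, 76.9 and 68.7 FPKM at E14.5 and 46.6, 65.8 and 57.9 FPKM at E16.5. Its E14.5 and E12.5 libraries did not overlap (log2 fold change 1.61 ± 0.21, limma adjusted p = 3.49e-05), while its E14.5 and E16.5 libraries did.

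Nlrc5, known as a transactivator of MHC class I genes, was at 0, 0 and 0.1 FPKM at E10.5 and 0.19, 0 and 0 FPKM at E12.5. It then reached 40.4, 43.6 and 31.9 FPKM at E14.5 and 194, 221 and 150 FPKM at E16.5. In whole body it had 0.07, 0 and 0.02 FPKM. Its log2 fold change of E14.5 against E12.5 was 5.21 ± 0.16 (limma adjusted p = 4.92e-11). Nlrc5 shares exon sequence with 9330175E14Rik on the other strand, which averaged 14.7 FPKM at E16.5. Hist1h2be, a histone H2B gene, averaged 38.8 ± 8.38 FPKM at E14.5 and 4.54 ± 1.82 FPKM at E12.5 (SD, n = 3 each). The histone H2B genes are nearly identical, so the assignment of its fragments is uncertain. Hist1h2be also shares 496 exon bases with Hist1h1e on the same strand, which averaged 9.20 FPKM at E16.5.

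All 5 lens-preferred and small proteins were higher at E14.5 than at E12.5. Lenep encodes a small protein first described from lens epithelium. It had 1.12, 0 and 0 FPKM at E10.5, 5.37, 10.4 and 17.3 FPKM at E12.5, 308, 341 and 317 FPKM at E14.5 and 706, 809 and 622 FPKM at E16.5, and was listed at 0 in whole body. The E12.5 libraries spread more than 3-fold, yet all lay far below the E14.5 libraries (log2 fold change 4.87 ± 0.32, limma adjusted p = 5.70e-08). Lenep (chr3:89400988-89402793, minus strand) shares 1790 exon bases with Flad1 on the same strand, which averaged 977 FPKM at E16.5, and how fragments were divided between these genes cannot be seen from the values.

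Grifin, a galectin-related lens protein, had 1.05, 0.90 and 0.95 FPKM at E10.5, 75.3, 103 and 119 FPKM at E12.5, 335, 321 and 316 FPKM at E14.5 and 422, 461 and 415 FPKM at E16.5, with 0.04 FPKM in each whole-body library. It was among the genes nearest to the E10.5 threshold and among those already strong at E12.5, at 22.9% of the E16.5 mean. Its log2 fold change of E14.5 against E12.5 was 1.72 ± 0.12 (limma adjusted p = 1.39e-07). Hspb3, a small heat shock protein, followed a similar course at a lower level, with 0.11, 0 and 0.17 FPKM at E10.5, 5.77, 7.71 and 11.9 FPKM at E12.5, 36.0, 34.7 and 31.4 FPKM at E14.5 and 49.2, 62.3 and 47.0 FPKM at E16.5. In whole body it had 0.56, 0.63 and 0.31 FPKM.

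Lctl, a klotho-family protein whose loss causes lens defects in mice, came on later. It was listed at 0 in all E10.5 and whole-body libraries and had 0.16, 0.18 and 0.44 FPKM at E12.5, 18.9, 22.6 and 16.46 FPKM at E14.5 and 182, 195 and 129 FPKM at E16.5. At E14.5 it stood at 11.5% of its E16.5 mean, against 0.154% at E12.5, with a log2 fold change of 4.01 ± 0.17. Birc7, an inhibitor of apoptosis protein, had 0.05, 0.28 and 0.22 FPKM at E10.5, 1.24, 1.53 and 1.08 FPKM at E12.5, 26.3, 24.5 and 23.6 FPKM at E14.5 and 135, 164 and 115 FPKM at E16.5, with 0.08, 0.12 and 0.08 FPKM in whole body. For both genes the libraries of E12.5, E14.5 and E16.5 did not overlap.

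Of the nucleases, proteases and lysozymes, all 4 were higher at E14.5. Dnase2b encodes the acid DNase that degrades DNA in fibre nuclei. Dnase2b (chr3:146580985-146615596, minus strand) was listed at 0 in all E10.5 and whole-body libraries and had 0.08, 0.29 and 0.58 FPKM at E12.5, 55.9, 63.7 and 47.2 FPKM at E14.5 and 226, 275 and 183 FPKM at E16.5. Every E14.5 library lay far above the E12.5 libraries (log2 fold change 5.43 ± 0.18, limma adjusted p = 5.20e-11), and the level at E14.5 was 24.4% of that at E16.5. The related Dnase2a, which acts in lysosomes of many cell types, averaged 0.427 ± 0.380 FPKM at E14.5 and 3.03 ± 0.418 FPKM at E12.5 (SD, n = 3 each). Tmprss11e, a transmembrane serine protease, had 0.05, 0 and 0 FPKM at E10.5, 0, 0 and 0.07 FPKM at E12.5, 19.9, 19.9 and 18.3 FPKM at E14.5 and 44.6, 53.6 and 46.0 FPKM at E16.5, and was listed at 0 in whole body. Its E14.5 libraries lay far above the E12.5 libraries (log2 fold change 4.31 ± 0.12). Tmprss5, another such protease, and the lysozyme-like gene Lyzl4 averaged 51.6 and 22.4 FPKM at E14.5, against 14.6 and 8.75 FPKM already at E12.5.

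Promoters are shown for Dnase2b, Lenep and Lctl, as genes with a steep step between E12.5 and E14.5 whose sequence was given and which hold one of the motifs searched. Each is 250 bases before to 50 after a transcription start from RefSeq (GRCm38.p6), on the strand of the gene, at chr3:146615549-146615848 (minus), chr3:89402601-89402900 (minus) and chr9:64116897-64117196 (plus). Capitals mark GAANNTTC, the core of a heat shock element, and TGCTGA or its complement TCAGCA, a half-site of Maf factors.
Dnase2b: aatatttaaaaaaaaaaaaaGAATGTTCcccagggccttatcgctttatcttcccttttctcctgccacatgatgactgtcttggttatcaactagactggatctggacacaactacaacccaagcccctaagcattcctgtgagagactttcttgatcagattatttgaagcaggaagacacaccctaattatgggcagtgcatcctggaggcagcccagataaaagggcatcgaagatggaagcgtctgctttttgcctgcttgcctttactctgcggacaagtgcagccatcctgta
Lenep: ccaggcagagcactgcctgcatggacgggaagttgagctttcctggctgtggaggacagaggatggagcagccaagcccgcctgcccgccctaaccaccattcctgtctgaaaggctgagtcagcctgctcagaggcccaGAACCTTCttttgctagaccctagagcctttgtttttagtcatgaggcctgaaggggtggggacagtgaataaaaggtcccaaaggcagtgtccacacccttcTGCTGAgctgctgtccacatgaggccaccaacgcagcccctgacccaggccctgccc
Lctl: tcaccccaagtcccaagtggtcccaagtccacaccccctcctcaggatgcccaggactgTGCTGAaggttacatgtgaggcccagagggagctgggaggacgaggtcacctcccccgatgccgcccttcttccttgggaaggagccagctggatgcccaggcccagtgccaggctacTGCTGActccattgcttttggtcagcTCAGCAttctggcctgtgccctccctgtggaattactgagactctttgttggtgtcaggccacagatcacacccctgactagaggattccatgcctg
The promoter of Dnase2b holds GAANNTTC, that of Lctl holds TGCTGA on both strands, and that of Lenep holds both motifs. The GENCODE start of Lenep (chr3:89402793) lies inside its printed stretch, upstream of the RefSeq start. Both marked motifs of Lenep come after that GENCODE start, so they lie within the transcript whose level was measured. A match is a description of the letters and no evidence of binding.

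Over all late-on genes, 42 were found in the promoter table, with 51 promoters. Both strands were searched, and a GAANNTTC match reads the same on either strand. GAANNTTC was present in 8 of 51 (15.7%), against 7.86% of all 32841 promoters and 5.31% of 7211 promoters of other genes with at least 20 FPKM at E16.5, and in 0 of 15 crystallin promoters. The longer element in which GAANNTTC is followed directly by NNGAA was present in 1 (1.96%, in Lyzl4) against 0.603% of all promoters. TGCTGA was present in 16 (31.4%), against 19.5% of all promoters, 14.2% of those of the other expressed genes and 66.7% of 15 promoters of alpha, beta and gamma crystallin genes. TATAAA was present in 6 (11.8%), against 13.6% of all promoters, 6.38% of those of the other expressed genes and 26.7% of the crystallin promoters. CpG dinucleotides were sparse in the promoters of the late-on genes: the median ratio of observed to expected CpG was 0.299, against 0.802 for the other expressed genes, 0.384 for all promoters and 0.272 for the crystallins. A ratio under 0.5 was seen for 70.6% of the promoters of the late-on genes, 16.2% of those of the other expressed genes and 58.1% of all. These differences were not tested. The promoters with the highest ratios were those of Slc35f3 and Gm15860 (0.970 and 0.969).

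**Figure D3:**
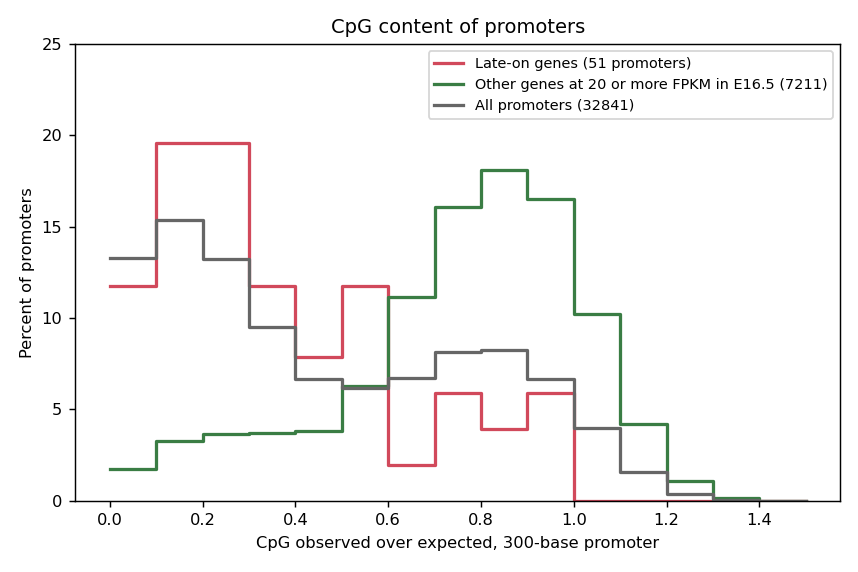
Distribution of the CpG observed-to-expected ratio (horizontal axis, steps of 0.1) as a percent of promoters (vertical axis) for the late-on genes (red, 51 promoters), other genes with at least 20 FPKM at E16.5 (green, 7211) and all promoters of the table (grey, 32841). The red line is highest at low ratios and the green line peaks between 0.8 and 0.9.

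All 3 junction and adhesion genes were higher at E14.5. Gje1, a connexin-like gene of lens fibres, was the highest of the 58 genes at both E12.5 and E14.5. Gje1 (chr10:14715623-14718214, minus strand) had 0.87, 1.09 and 0.84 FPKM at E10.5, 191, 221 and 326 FPKM at E12.5, 807, 826 and 611 FPKM at E14.5 and 566, 665 and 601 FPKM at E16.5, with 0.04, 0 and 0.04 FPKM in whole body. Its E14.5 libraries were above its E12.5 libraries (log2 fold change 1.62 ± 0.16, limma adjusted p = 2.47e-06), and its E14.5 and E16.5 libraries overlapped. Ceacam2 and Ceacam10, cell adhesion molecules of the immunoglobulin family, behaved otherwise. Both were listed at 0 in all E12.5 libraries. Ceacam2 had 6.74, 6.87 and 6.13 FPKM at E14.5 and 64.7, 66.6 and 43.3 FPKM at E16.5. Ceacam10 had 2.65, 4.08 and 3.48 FPKM at E14.5 and 56.3, 61.2 and 41.9 FPKM at E16.5. These paralogs lie 731 kb apart on chromosome 7, and reads they share could have been split between them.

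Channels and transporters numbered 5, all higher at E14.5. Slc24a4, a potassium-dependent sodium-calcium exchanger, was the most abundant, with 0.64, 0.38 and 0.40 FPKM at E10.5, 42.7, 55.6 and 91.2 FPKM at E12.5, 405, 413 and 317 FPKM at E14.5 and 417, 495 and 413 FPKM at E16.5. In whole body it had 0.48, 0.84 and 0.54 FPKM. Its level at E14.5 was 85.7% of that at E16.5, and the libraries of these stages overlapped (log2 fold change of E14.5 against E12.5, 2.62 ± 0.20). Scnn1b, the beta subunit of the epithelial sodium channel, had 11.4, 13.8 and 25.9 FPKM at E12.5, 179, 198 and 143 FPKM at E14.5 and 130, 151 and 165 FPKM at E16.5. Its E14.5 and E16.5 libraries overlapped. Scn11a, a voltage-gated sodium channel, and Gabrg3, a GABA-A receptor subunit, had smaller steps (log2 fold change 0.9996 ± 0.2063 and 1.6104 ± 0.2160). Slc35f3, a solute carrier, had 18.2, 19.5 and 19.9 FPKM at E14.5 and 9.40, 8.84 and 9.91 FPKM at E12.5. It had 33.5, 28.2 and 34.2 FPKM at E16.5, 0.27, 0.33 and 0.11 FPKM at E10.5 and 0.22, 0.20 and 0.19 FPKM in whole body. The difference between E14.5 and E12.5 was small in size (0.96 ± 0.13) but exceeded the spread between libraries (limma adjusted p = 4.02e-05).

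The 4 other receptors were all higher at E14.5, and their median log2 fold change of 1.18 was the lowest among these groups. Drd4, the dopamine D4 receptor, had 34.4, 41.2 and 31.4 FPKM at E14.5 and 17.0, 20.4 and 31.0 FPKM at E12.5. It had 50.98, 49.6 and 42.6 FPKM at E16.5, 0.37, 0.24 and 0.62 FPKM at E10.5 and 0.37, 0.28 and 0.51 FPKM in whole body. The highest E12.5 library nearly reached the lowest E14.5 library, and the call (log2 fold change 0.66 ± 0.19, limma adjusted p = 0.0123) was lost in 7 of the other settings. Mtnr1a, a melatonin receptor, averaged 37.0 ± 4.14 FPKM at E14.5 and 17.6 ± 3.59 FPKM at E12.5 (SD, n = 3 each). Gpr160, an orphan G protein-coupled receptor, and Tnfrsf23, a decoy receptor for TRAIL, had log2 fold changes of 1.32 ± 0.18 and 1.71 ± 0.22. The calcium-binding proteins S100a4 (2.14 ± 0.18) and Cabp5 (3.60 ± 0.17) and the enzymes Gstp2, a glutathione transferase (3.05 ± 0.17), Aox4, an aldehyde oxidase (1.83 ± 0.23), and Cyb5r2, a cytochrome b5 reductase (1.76 ± 0.30), were all called higher. Gstp2 has a close paralog in Gstp1, which averaged 490 FPKM at E16.5, so reads they share could bear on its value.

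Genes of the cytoskeleton, vesicles and signalling were the only group with members that missed the threshold, with 6 of 9 called higher. Syn2, a synapsin of synaptic vesicles, had 86.9, 85.1 and 73.4 FPKM at E14.5 and 51.1, 67.1 and 77.3 FPKM at E12.5, so the stages overlapped (log2 fold change 0.34 ± 0.18, limma adjusted p = 0.144). It had 80.7, 81.4 and 70.3 FPKM at E16.5, 0.26, 0.07 and 0.11 FPKM at E10.5 and 0.59, 0.69 and 1.56 FPKM in whole body. By its means, 84.1% of its E16.5 mean was present by E12.5. Crocc2, a relative of the ciliary rootlet protein rootletin, had 23.99, 24.5 and 25.4 FPKM at E14.5 and 14.2, 21.6 and 25.04 FPKM at E12.5. It had 34.2, 27.9 and 27.7 FPKM at E16.5, 0.69, 0.57 and 1.41 FPKM at E10.5 and 0.34, 0.08 and 0.08 FPKM in whole body. Dusp15, a dual-specificity phosphatase, had 21.9, 16.7 and 22.9 FPKM at E14.5 and 13.3, 20.3 and 17.3 FPKM at E12.5. Its other values were 34.6, 24.1 and 19.7 FPKM at E16.5, 0, 0.14 and 0.33 FPKM at E10.5 and 0, 0.36 and 0.91 FPKM in whole body. For both genes E14.5 and E12.5 overlapped (limma adjusted p = 0.253 and 0.424), and Crocc2 stood at 67.7% and Dusp15 at 64.8% of the E16.5 mean by E12.5. With the libraries rescaled to equal totals the sign of all 3 log2 fold changes turned (Syn2 -0.19, Crocc2 -0.21 and Dusp15 -0.24). With crystallins left out before the rescaling, none of the 3 signs turned. A change in these genes between E12.5 and E14.5 was not detectable with these libraries.

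Myo7b, an unconventional myosin, was higher at each later stage, with 0.09, 0.24 and 0.17 FPKM at E10.5, 12.7, 20.1 and 29.9 FPKM at E12.5, 75.1, 86.4 and 82.1 FPKM at E14.5 and 271, 315 and 212 FPKM at E16.5. In whole body it had 0.04, 0.20 and 0.43 FPKM. Dytn encodes dystrotelin, a relative of dystrophin, and had its highest levels at E14.5, with 2.49, 6.23 and 11.3 FPKM at E12.5, 49.8, 41.1 and 38.7 FPKM at E14.5 and 24.2, 31.4 and 25.7 FPKM at E16.5. Its E14.5 mean was 160% of its E16.5 mean, the highest share among the 58. Plekhs1, Faim2 (an inhibitor of Fas-mediated death), Rab42 (a small GTPase) and Sec14l5 were called higher at E14.5, with log2 fold changes between 1.41 (Sec14l5) and 3.20 (Faim2). Among the remaining protein-coding genes, Tmem40, a membrane protein, had 0.77, 0.37 and 1.01 FPKM at E10.5, 108, 141 and 175 FPKM at E12.5, 381, 422 and 383 FPKM at E14.5 and 583, 668 and 529 FPKM at E16.5, each stage above the one before. In whole body it had 0.93, 1.12 and 0.85 FPKM. R3hdml, Tex26 and A930009A15Rik, and Gm37938, which was not found in the annotation, were also called higher (log2 fold changes of 1.28 to 2.62).

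Genes annotated as non-coding made up 14 of the 57 late-on genes found in GENCODE vM21, and all 14 were higher at E14.5. By class, 8 were antisense genes, 4 were lincRNAs and 2 were processed transcripts. RP23-114F4.1 (named Gm42744 in vM21, a lincRNA at chr5:4784753-4799094, minus strand) had the highest E16.5 mean of all 58 genes. It had 0.05, 0.05 and 0 FPKM at E10.5, 0.08, 0.06 and 0.07 FPKM at E12.5, 55.5, 65.4 and 50.6 FPKM at E14.5 and 758, 858 and 620 FPKM at E16.5, with 0.04, 0 and 0.04 FPKM in whole body. The log2 fold change of E14.5 against E12.5 was 5.76 ± 0.14 (limma adjusted p = 3.20e-12), the highest of the 58 on the log2(FPKM + 1) scale, and the mean at E16.5 was a further 13.0-fold above that at E14.5. Gm20757, also a lincRNA, was listed at 0 at E10.5 and had 6.61, 7.11 and 9.64 FPKM at E12.5, 153, 143 and 119 FPKM at E14.5 and 271, 303 and 247 FPKM at E16.5, with 0.03, 0 and 0 FPKM in whole body. The antisense gene 5830418P13Rik had 0.29, 0.10 and 0.48 FPKM at E10.5, 7.97, 13.6 and 17.6 FPKM at E12.5, 82.2, 118 and 121 FPKM at E14.5 and 220, 266 and 195 FPKM at E16.5, and was listed at 0 in whole body. Gm13883 was the latest of all, listed at 0 at E12.5 and at 0.93, 1.93 and 2.34 FPKM at E14.5, before 42.1, 43.1 and 30.5 FPKM at E16.5. The other 10 non-coding genes (D630024D03Rik, Gm20631, 1700071M16Rik, Gm833, Gm15417, Gm11837, 2900005J15Rik, Gm11961, Gm29054 and Gm15860) had log2 fold changes of E14.5 against E12.5 from 3.95 (D630024D03Rik) to 1.30 (Gm15860).

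Several of the non-coding genes overlap genes that were abundant in the late lens. Of the 57 genes found in the annotation, 18 have exons that overlap exons of another gene, 15 of them on the other strand. In 12 of these 15 the partner reached at least 1 FPKM at E16.5. 5830418P13Rik overlaps Bfsp2, a beaded filament protein of fibre cells that averaged 4226 FPKM at E16.5. 1700071M16Rik overlaps Pla2g7 (996 FPKM), Gm15417 overlaps Zbtb7b (672 FPKM) and Gm29054 overlaps Hmgn3 (661 FPKM). Whether the libraries keep strand is not stated, so fragments from the shared exon bases cannot be assigned to a gene or its partner. Between E12.5 and E14.5 the mean of 12 such partners rose, except for Zwilch and Ppfibp2. Zwilch, the partner of Lctl, went from 22.9 to 15.3 FPKM, and Ppfibp2, the partner of Cyb5r2, from 7.31 to 1.55 FPKM. Lctl was listed at 0 in all E10.5 libraries, where Zwilch averaged 46.1 FPKM. The part of partner fragments in the levels was not tested. Among the 40 late-on genes with no such overlap found, 38 were called higher at E14.5, with a median log2 fold change of 1.92. These 40 include Gm37938, which is not in the annotation, so its overlap is unknown.

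**Figure D4:**
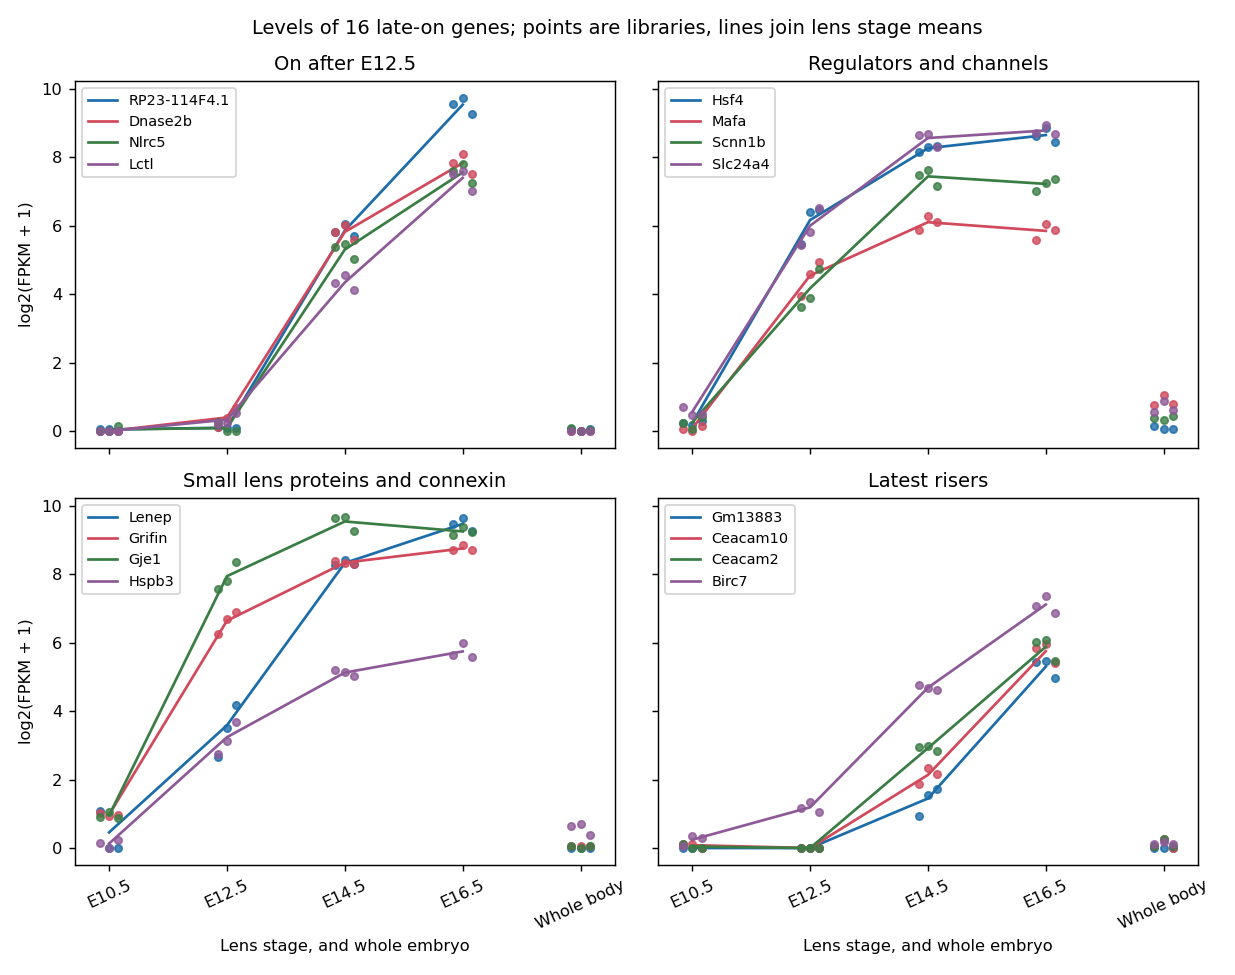
Level of 16 late-on genes as log2(FPKM + 1) at each lens stage and in whole body, with points for libraries and lines through the logarithm of the stage means. Lctl, Dnase2b, Nlrc5 and RP23-114F4.1 stay near 0 at E12.5, while Gje1, Grifin and Hsf4 are already high there.

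The 58 genes differed in when they came on. By E12.5, 47 had a mean of at least 1 FPKM, and the other 11 reached it at E14.5. For genes just under 1 FPKM at E10.5 this can be a small step. Gm15860 averaged 0.947 FPKM at E10.5 and 1.44 FPKM at E12.5, with overlapping libraries. At E12.5 a mean of at least 5 FPKM was reached by 34 genes, of at least 10 FPKM by 22 and of at least 20 FPKM by 13. By E14.5, 45 had at least 20 FPKM. The median share of the E16.5 mean was 70.3% at E14.5 and 12.5% at E12.5. At E14.5, 7 genes stood below 20% of their E16.5 mean (Gm13883, Ceacam10, RP23-114F4.1, Ceacam2, Lctl, Gm15860 and Birc7), 13 stood at 20% to 50% and 28 at 50% to 100%. The other 10 had a higher mean at E14.5 than at E16.5 (Dytn, Gje1, Mafa, Scnn1b, Tex26, Aox4, Syn2, A930009A15Rik, Sec14l5 and Lyzl4). The non-coding genes stood at a median of 50.7% at E14.5 and the 4 other receptors at 82.9%, a difference that was not tested.

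**Figure D5:**
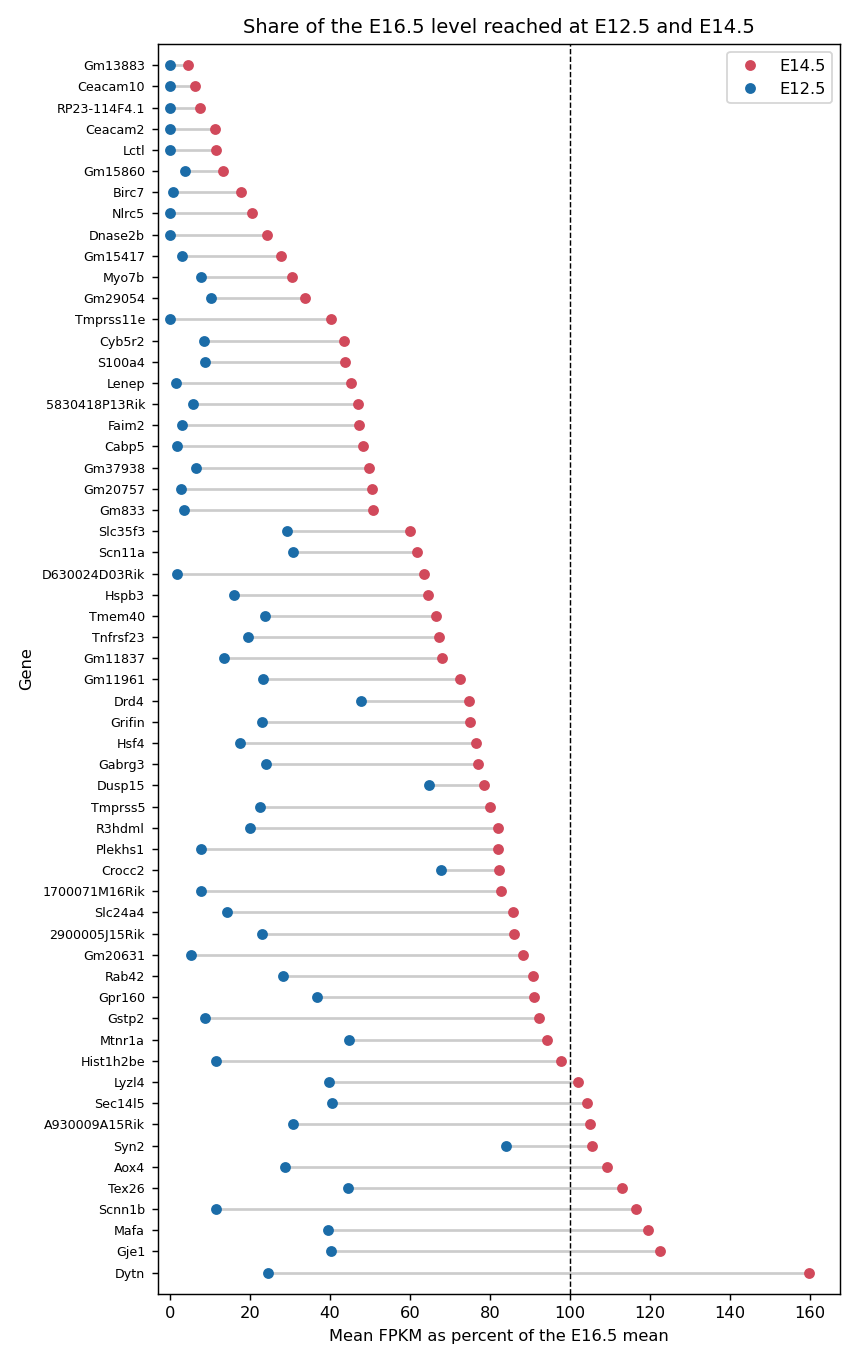
Mean FPKM at E14.5 (red) and at E12.5 (blue) as a percent of the E16.5 mean (horizontal axis) for each of the 58 genes (vertical axis), ordered by the E14.5 value. The E14.5 values run from 4.49% for Gm13883 to 160% for Dytn, and the E12.5 values reach up to 84.1% for Syn2.

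Libraries within a stage also differed in step. At E12.5, replicate 1 was the lowest library for 48 of 53 late-on genes without ties (34.6% of all genes tested) and replicate 3 the highest for 47 (36.0% of all genes). The summed level of the 58 genes was 822 FPKM in replicate 1, 1123 FPKM in replicate 2 and 1456 FPKM in replicate 3. Markers of periocular mesenchyme summed to 1197 FPKM in replicate 1, 519 FPKM in replicate 2 and 426 FPKM in replicate 3, and retinal markers to 104.9, 63.7 and 38.6 FPKM in the same order. Without replicate 1, 54 of the 58 genes were still called higher at E14.5, with a median log2 fold change of 1.78. At E16.5, replicate 2 was the highest for 48 of 57 genes without ties, against 41.6% of all genes. The part of other cells in these differences was not tested.

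Other genes of the lens programme moved less uniformly between E12.5 and E14.5. Among all 14532 genes tested, 21.2% were called higher and 22.4% lower. The lists that follow were not tested against these shares. Of 15 tested genes of the fibre membrane and cytoskeleton 12 were higher and 0 lower, with Gje1 as the only late-on gene among them. Of 9 lens-preferred enzymes and small proteins 8 were higher and 0 lower, 5 of them late-on genes. Among 18 transcription factors of the lens, 9 were higher and 3 lower, of 37 cataract genes 24 were higher and 3 lower, and of 6 small heat shock proteins outside the crystallins 3 were higher and 0 lower. Of 17 genes of nuclear and organelle breakdown 8 were higher and 6 lower, with a median log2 fold change of 0.11, and Dnase2b was the only late-on gene among them. Of 14 calpains and caspases 5 were higher and 6 lower, and of 13 lipid and phospholipase genes 4 were higher and 2 lower, and neither list holds a late-on gene. Bfsp1, which encodes the beaded filament protein filensin, averaged 3056 ± 395 FPKM at E14.5 and 132 ± 46.1 FPKM at E12.5 (SD, n = 3 each), but missed both low thresholds, with 3.54 FPKM at E10.5 and 1.03 FPKM in whole body.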

How the data were processed

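RNA-seq was made from pools of wild-type mouse lenses at 4 stages and from whole embryos, with 3 libraries in each of 5 groups. The deposited table gives transcript levels in FPKM. Per the submitters' processing notes, the authors used genome build mm10 and the tools Cuffnorm, Cufflinks, TopHat2 (version 2.0.9) and Trimmomatic. Their order and settings, the strandedness and the read depth are not given in the sources used here, so no error that depends on depth can be given. FPKM sums per library ran from 706887 to 1626262, with Cryaa, Cryba1 and Nufip2 included as listed.

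A gene's level was taken here as its transcripts added together by symbol. Of 48306 transcripts, 172 marked class x (exon overlap with the opposite strand) were dropped. A filter of 1 FPKM or more in 3 or more libraries removed 80 genes. Cryaa, Cryba1 and Nufip2 were not tested, because a library listed at 0 stood beside a replicate of 50 FPKM or more. The test of E14.5 against E12.5 used limma 3.58.1 (R 4.3.3) and log2(FPKM + 1). Every group had its own mean, the 15 libraries shared one estimate of spread with a trended prior (10 residual degrees of freedom), and p-values were adjusted by Benjamini-Hochberg across 14532 genes. For the late-on genes the thresholds hold the E10.5 and whole-body means below 1 FPKM, where log2(FPKM + 1) leaves little room for spread. These groups enter the shared estimate, so the SE and p-values printed for late-on genes can be too small. In a limma fit of only the compared groups, 54 late-on genes were called higher and Drd4 lost its call (adjusted p = 0.0818). A gene was called at an adjusted p under 0.05. On this scale the change of weakly expressed genes is understated. The p-values measure the spread between pools. The fit was checked on simulated data, where 92% of 50 genes changed 2-fold were recovered. The changed genes had E12.5 levels above 5 FPKM, and each gene had the same spread in all groups. The check therefore does not cover the 24 late-on genes under 5 FPKM at E12.5, nor groups held near 0. The replicate numbers did not pair the libraries, so the test has no replicate block.

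GENCODE vM21 gave coordinates and gene types for this build, and RefSeq (GRCm38.p6) the promoters, 250 bases before to 50 after a start. Tables and plots used Python 3.11.15, pandas 2.3.3 and matplotlib 3.10.9. The members, gene lists, role groups and tests were chosen with earlier results of these data known. Values in every library are given for the 12 genes with the highest E16.5 mean, the members of a gene list, and the 5 genes with the largest and the 5 with the smallest change between E14.5 and E12.5. Mafa, Scnn1b, Dytn, Ceacam2, Ceacam10 and Gm13883 were added after their values were seen, as were the split by exon overlap and the liver genes. Alternatives covered the pseudocount, the filter, the scaling, the replicate block, the thresholds, the transcript choice and leaving out each library.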

Additional observations from a re-analysis of the deposited data

Results flagged for a closer look

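A transcript on the strand opposite to Myo7b was among the class x transcripts that were left out of the gene values, and it was well above whole body in the late lens. It averaged 13.1 FPKM at E16.5 (14.1, 16.3 and 8.93 FPKM), 0.510 FPKM at E14.5, 0.127 FPKM at E12.5 and 0 at E10.5, with 0.0133 FPKM in whole body. Myo7b itself averaged 266 FPKM at E16.5.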

How the results depend on the processing

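Across 25 alternative fits, 1450 values were recomputed: 1439 kept their direction and their side of the threshold, 8 lost the call and 3 reversed. Many of these fits changed only the filter, the block, the prior or the groups and libraries outside the comparison. Such fits cannot change a fold change, only its p-value, so the kept directions there carry no information. The number of the 58 genes called higher at E14.5 ran from 53 (pseudocount 0.1) to 55. Leaving out each E12.5 or E14.5 library gave 54 to 55 genes and a median log2 fold change of 1.78 to 2.17. Leaving out any other library gave 55 genes, and there the median of 1.99 could not change. The median was 1.46 with the libraries rescaled to the mean total, where the median of all genes shifted by -0.46, and 1.74 with crystallins left out and the libraries rescaled, where it shifted by -0.21. The first rescaling reversed Crocc2 (-0.21), Dusp15 (-0.24) and Syn2 (-0.19), none of which was called before. Of all genes, 3088 were called higher, against 793 and 1620 under these 2 rescalings. Drd4 lost its call in 7 fits (adjusted p 0.0586 to 0.561) and Sec14l5 with a pseudocount of 0.1 (adjusted p = 0.07). With the replicate block, 55 genes were called higher and the median was 1.99. Deviations of E12.5 and E14.5 libraries with the same number correlated at 0.24, -0.09 and -0.07, so the numbers do not pair the libraries.

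The thresholds decide the list: 90 genes met an E16.5 threshold of 10 FPKM, 36 one of 40 FPKM, 36 a silent threshold of 0.5 FPKM and 81 one of 2 FPKM. With the highest transcript of a symbol in place of the sum, 46 genes met the thresholds, 44 of them among the 58. With crystallins left out and the libraries rescaled, 42 did. Leaving out each E10.5, E16.5 or whole-body library gave 55 to 62. The depth is unknown, so levels below 1 FPKM cannot be ranked with confidence.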
